A study of Mus musculus with 6 samples.

Results

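Globin and other red cell transcripts were followed in the midface of mouse embryos. The gene table was searched for 9 symbols, namely the alpha-like globins Hba-x, Hba-a1 and Hba-a2, the beta-like globins Hbb-y, Hbb-bh1, Hbb-bt and Hbb-bs, and the erythroid genes Alas2 and Slc4a1, and all 9 were found among its 55401 genes. Each passed the filter on low counts. RNA came from the frontonasal and maxillary prominences (FNP/MxP), which form the nose, midface and upper jaw, dissected at E10.5. The 3 controls were CRE-negative littermates, for which the study allowed any combination of Tfap2a and Tfap2b alleles on a mixed background. In the 3 Tfap2Δ/NCKO mutants 1 copy of Tfap2a and 1 of Tfap2b was null and the other was floxed. Wnt1:CRE, which acts in the neural crest before it migrates, removed the floxed copies from that lineage. In the study's sorted cells, labelling by Wnt1:CRE also took in parts of the brain. The transgene was present in all mutants and absent from all controls, and an effect of it cannot be told apart from one of TFAP2 loss. Red blood cells are not of crest origin, and in mutants their own dose of both genes was reduced.

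Haemoglobin is a tetramer of alpha-like and beta-like chains, each holding a haem group. In the mouse embryo the first red cells come from the yolk sac, circulate as nucleated cells and make the embryonic chains zeta (Hba-x), epsilon y (Hbb-y) and beta h1 (Hbb-bh1) beside the alpha chains (Hba-a1, Hba-a2), which are kept for life. The adult beta chains (Hbb-bt, Hbb-bs) become the main beta chains once red cells made in the fetal liver enter the blood. Alas2 is the erythroid enzyme for the first step of haem synthesis, and Slc4a1 encodes band 3, the anion exchanger of the red cell membrane. In bulk tissue these transcripts come mainly from red cells held in the dissected piece, and fewer red cells cannot be told apart from less RNA per red cell.

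The alpha-like genes lie on chromosome 11 of mm10, with Hba-x at 32276400 to 32278116, Hba-a1 at 32283511 to 32284465 and Hba-a2 at 32296489 to 32297298, all on the plus strand. The beta-like genes lie on the minus strand of chromosome 7, with Hbb-bt at 103812524 to 103813996, Hbb-bs at 103826534 to 103828096, Hbb-bh1 at 103841637 to 103843164 and Hbb-y at 103851749 to 103853216. Slc4a1 is at 102348824 to 102366203 on chromosome 11, and Alas2 at 150547375 to 150570638 on the X chromosome, where its exons are overlapped over 311 bases by Apex2 on the opposite strand.

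Some copies could not be separated well by reads of 150 bases. The coding sequences of Hba-a1 and Hba-a2 differed at 1 of 429 bases, and those of Hbb-bt and Hbb-bs at 1 of 444. The 30 coding bases around each difference are shown because these single bases are all that separates the copies within their coding sequence. The differing base is in capitals, the substitution from Hba-a1 to Hba-a2 is C381T and that from Hbb-bt to Hbb-bs is T417C, with positions counted from 1 at the first base of the start codon.
Hba-a1: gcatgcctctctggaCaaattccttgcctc
Hba-a2: gcatgcctctctggaTaaattccttgcctc
Hbb-bt: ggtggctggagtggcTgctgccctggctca
Hbb-bs: ggtggctggagtggcCgctgccctggctca
Of all stretches of 150 bases in the longest coding transcript, 48.4% in Hba-a1 and 65.7% in Hba-a2 were also found in the other alpha gene, and 50.7% in Hbb-bt and 58.7% in Hbb-bs were found in the other adult beta gene. No such stretch was shared by Hba-x, Hbb-y, Hbb-bh1, Alas2 or Slc4a1 with another transcript. Hbb-y and Hbb-bh1 were 76.4% identical over their coding bases. The split of reads within each near-identical pair is therefore uncertain, while the sum of a pair is not touched by it.

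Spellings of short promoter elements were searched in the 7 members with an entry in the RefSeq promoter table (GRCm38.p6), and none of them was found in all 7. The 130 bases before the annotated start are shown for 6 of them so that these elements can be read in place. Whether they bear on which transcripts moved together over the libraries was not tested. Capitals mark 5 motifs, each searched on both strands in 1 spelling only. These were the CCAAT box, the TATA box spelled TATAA and the TFAP2 site GCCNNNGGC. CCACCC stood for the elements that erythroid KLF factors bind, and AGATAA for GATA factor sites. A window without a match may hold another spelling of such a site.
Hba-x, chr11:32276470-32276599, plus strand: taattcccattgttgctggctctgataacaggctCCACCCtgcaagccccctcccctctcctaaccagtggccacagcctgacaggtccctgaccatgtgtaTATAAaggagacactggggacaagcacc
Hba-a1, chr11:32283542-32283671, plus strand: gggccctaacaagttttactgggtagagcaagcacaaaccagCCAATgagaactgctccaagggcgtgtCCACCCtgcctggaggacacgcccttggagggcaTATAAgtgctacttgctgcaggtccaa
Hbb-y, chr7:103853208-103853337, minus strand: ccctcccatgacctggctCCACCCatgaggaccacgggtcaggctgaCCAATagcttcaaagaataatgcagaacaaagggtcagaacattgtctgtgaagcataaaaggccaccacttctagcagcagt
Hbb-bt, chr7:103813924-103814053, minus strand: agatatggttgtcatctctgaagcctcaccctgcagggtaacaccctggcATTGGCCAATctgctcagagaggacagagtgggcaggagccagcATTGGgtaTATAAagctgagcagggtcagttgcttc
Hbb-bs, chr7:103827929-103828058, minus strand: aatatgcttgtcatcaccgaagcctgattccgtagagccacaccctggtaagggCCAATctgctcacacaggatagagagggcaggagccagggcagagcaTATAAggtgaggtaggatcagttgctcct
Alas2, chrX:150547287-150547416, plus strand: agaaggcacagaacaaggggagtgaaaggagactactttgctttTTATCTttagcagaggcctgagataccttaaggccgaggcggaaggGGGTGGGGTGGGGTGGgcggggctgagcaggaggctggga
The Hba-a2 promoter was identical to that of Hba-a1 over 297 bases. Over the 250 bases before the start, CCAAT was found in 5 of the 7 windows, CCACCC in 6, TATAA in 6 and AGATAA in 2, against 33.8%, 28.1%, 22.7% and 9.97% of all 32544 promoter windows of that length. The near-identical windows of Hba-a1 and Hba-a2 are counted separately. Alas2 held TATAA only between bases -208 and -203, whereas each globin with a match held it between bases -30 and -23. The letters GCCNNNGGC were found in 1 of the 7, at bases -185 to -177 of Hba-x, against 13.8% of all windows. A match is a description of the letters in a window and says nothing of binding.

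Values are given as CPM, the deposited estimated counts scaled to a TMM-adjusted library size (counts per 1000000). Each library held 68119668 to 77555252 counts, and 3 counts were equal to 0.0387 to 0.0440 CPM, so every member lay far above that floor. Tfap2a stood at 30.4 to 35.1 CPM in controls and 28.6 to 31.5 CPM in mutants, and Tfap2b at 88.7 to 97.3 CPM in controls and 75.6 to 84.2 CPM in mutants. Facial mesenchyme markers were strongly expressed, with a summed level of 1273 to 1300 CPM in controls and 1000.1 to 1045 CPM in mutants. The Y-linked transcript Ddx3y was at 0.0534 CPM in control 1 and 0.0265 CPM in control 3. It was at 45.1 CPM in control 2 and 40.5 to 45.8 CPM in the mutants, so control 2 was the only control with Y-linked RNA. Xist, the transcript of the inactive X chromosome, was at 667 and 700 CPM in controls 1 and 3. It was at 0.372 CPM in control 2 and 0.474 to 0.896 CPM in the mutants. Sex was therefore partly confounded with genotype. The samples are described as littermates and independent biological replicates.

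Blood transcripts were abundant in every library, and their share overlapped between genotypes. The 7 globins took 0.465% of all counts in control 1, 0.208% in control 2 and 0.361% in control 3, and 0.341%, 0.251% and 0.373% in mutants 1, 2 and 3. The highest library, control 1, stood 2.23-fold above the lowest, control 2, and all 3 mutants lay between them. The mean share was 0.345% ± 0.129 in controls and 0.322% ± 0.0633 in mutants (SD, n = 3), a difference of -0.0230 percentage points with p = 0.90 in a two-sided exact permutation test, whose smallest possible p is 0.10. The difference turned to 0.0372 without control 1 and to 0.0124 without mutant 2, and was -0.0912 without control 2.

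Levels of different genes were compared per kb of the longest annotated coding transcript. The embryonic beta-like chain Hbb-y was highest, at 1844 ± 698 CPM per kb in controls and 1748 ± 370 in mutants (SD, n = 3). It was followed by Hbb-bh1 (1207 ± 469 and 1169 ± 264), Hba-x (1011 ± 376 and 890.4 ± 156), Hba-a1 (640.3 ± 253 and 583 ± 79.0) and Hba-a2 (449 ± 174 and 416 ± 101). Within each of the 6 libraries these 5 genes stood in this same order, although the ranges of neighbours in the order overlapped across libraries. The step from Hba-a1 to Hba-a2 rests on the uncertain split of reads between these near-identical copies.

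Far below came the adult beta chains. Hbb-bs stood at 26.6 ± 8.49 CPM per kb in controls and 31.3 ± 4.05 in mutants, and Hbb-bt at 24.0 ± 7.73 and 32.1 ± 8.85. Hbb-bs exceeded Hbb-bt in 5 of 6 libraries and fell below it in mutant 3, so these neighbours did not differ beyond their spread. The lowest Hba-a2 library lay above the highest Hbb-bs library. Alas2 (9.55 ± 3.58 and 9.45 ± 2.20) and Slc4a1 (8.35 ± 3.89 and 7.29 ± 2.59) were lowest, with Alas2 above Slc4a1 in all 6 libraries and overlapping ranges.

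No member passed the test between genotypes. Of the 9 members 0 were called by edgeR's quasi-likelihood test (adjusted p under 0.05 with a ratio of over 5:4 either way), where 0.326% of all 19612 genes tested were called (64 genes; 0.219% lower and 0.107% higher in mutants). None reached an unadjusted p below 0.05, against 7.95% of all genes, and DESeq2's Wald test also called 0 members, beside 1.58% of the genes it tested. Control and mutant values overlapped for all 9, whereas 13.4% of all genes did not overlap. The median log2 fold change of the members was -0.08, beside 0.00 over all genes tested, with 7 values below and 2 above 0.

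**Figure D1:**
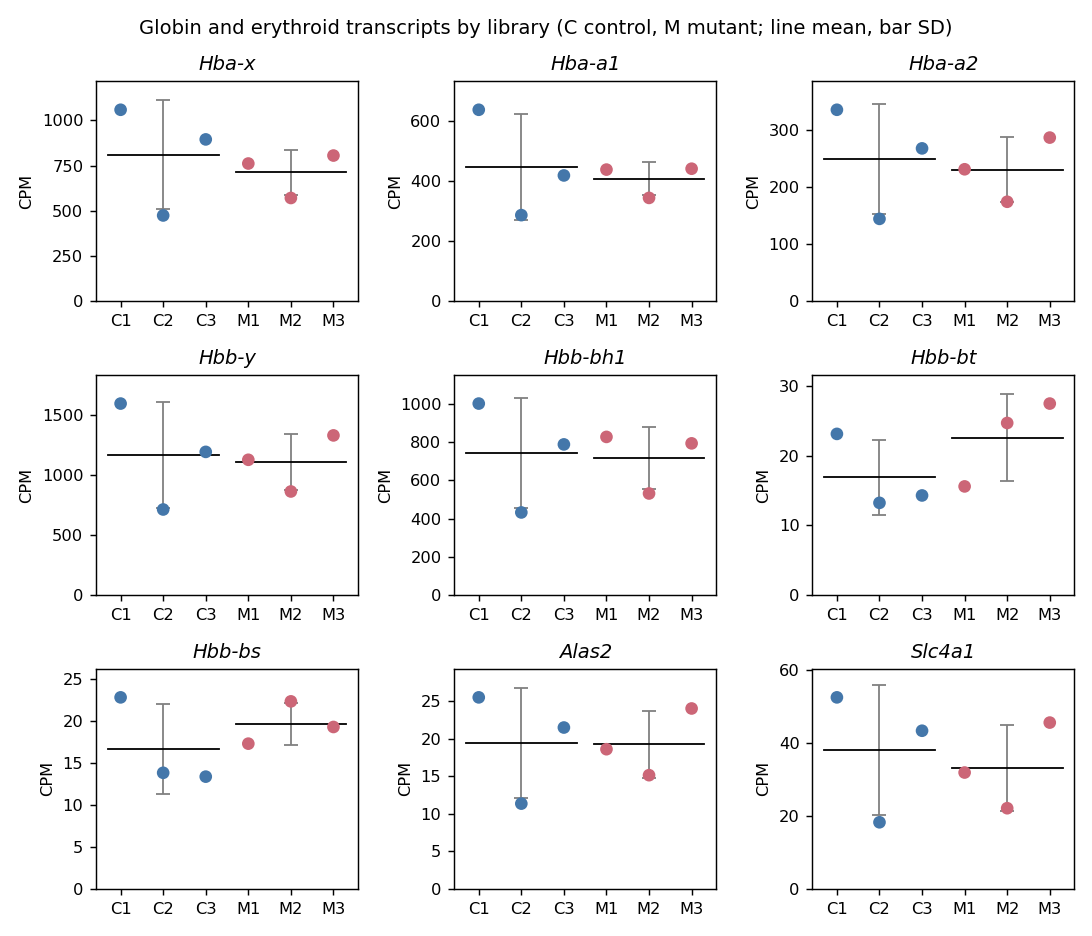
Expression of the 9 members in CPM (vertical axes from 0) in controls 1 to 3 (C, blue) and mutants 1 to 3 (M, red), with the group mean as a line and the SD as a bar. Control 2 is the lowest library for 8 of the 9 genes, and control and mutant values overlap in every panel.

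Hba-x, the embryonic alpha-like chain, measured 1059, 475 and 895 CPM in controls 1, 2 and 3, and 762, 571 and 806 CPM in mutants 1, 2 and 3. All mutants lay inside the control range, which was set by a high control 1 and a low control 2. The log2 fold change was -0.18 (SE 0.34, 95% interval -1.07 to 0.70, adjusted p = 0.963 in edgeR's test).

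Hba-a1 was at 637, 287 and 419 CPM in the controls and 438, 344 and 441 CPM in the mutants. Hba-a2 was at 335, 144 and 267 CPM in the controls and 231, 174 and 286 CPM in the mutants. Both alpha genes were again highest in control 1 and lowest in control 2, with mutant 2 the lowest mutant. Their log2 fold changes were -0.13 (SE 0.32, 95% interval -0.97 to 0.70) and -0.11 (SE 0.38, -1.11 to 0.89), and neither passed (adjusted p = 0.972 and 0.981, edgeR). Hba-a1 had 1.90, 1.99 and 1.57 counts per Hba-a2 count in the controls and 1.90, 1.98 and 1.54 in the mutants, so that control 3 and mutant 3 had the lowest ratio of their groups.

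Among the embryonic beta-like chains, Hbb-y had 1595, 713 and 1193 CPM in controls, against 1127, 863 and 1330 CPM in mutants. Hbb-bh1 was measured at 1000.3, 432 and 787 CPM in controls, against 826, 531 and 792 CPM in mutants. The order of libraries was close to that of the alpha chains, and mutants lay inside the control range. The log2 fold change was -0.08 for Hbb-y (SE 0.35, 95% interval -0.98 to 0.83, adjusted p = 0.989, edgeR) and -0.05 for Hbb-bh1 (SE 0.37, -1.03 to 0.93, adjusted p = 0.994).

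The adult beta chains ran otherwise. As the split of reads between these near-identical copies is uncertain, their values are not independent of each other. The mice were of mixed background, and the alleles that each embryo carried at the beta cluster were not determined. Hbb-bt measured 23.1, 13.2 and 14.3 CPM in controls, against 15.6, 24.7 and 27.5 CPM in mutants. Mutants 2 and 3 lay above every control, and mutant 1 lay between the controls. Hbb-bs had 22.8, 13.8 and 13.4 CPM in controls, against 17.3, 22.4 and 19.3 CPM in mutants, where all 3 mutants lay below control 1 and above controls 2 and 3. The log2 fold change was 0.42 for Hbb-bt (SE 0.30, 95% interval -0.32 to 1.16, adjusted p = 0.868, edgeR) and 0.24 for Hbb-bs (SE 0.22, -0.29 to 0.76, adjusted p = 0.909). With 1 library left out it ran from 0.25 without mutant 3 to 0.71 without control 1 for Hbb-bt, and from 0.094 without control 3 to 0.52 without control 1 for Hbb-bs, and Hbb-bs was at 0.017 without control 2 and mutant 2.

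Alas2 was measured at 25.5, 11.4 and 21.5 CPM in controls, against 18.6, 15.1 and 24.0 CPM in mutants. Slc4a1 measured 52.4, 18.2 and 43.3 CPM in controls, against 31.8, 22.1 and 45.5 CPM in mutants. Both followed the embryonic globins, with control 2 lowest and mutant 2 next. Slc4a1 had the widest spread of the members, 2.87-fold from highest to lowest library, against 1.71-fold to 2.32-fold for the others. Their log2 fold changes were -0.01 (SE 0.34, 95% interval -0.87 to 0.84) and -0.20 (SE 0.50, -1.52 to 1.13), with adjusted p = 0.998 and 0.976 in edgeR's test.

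**Figure D2:**
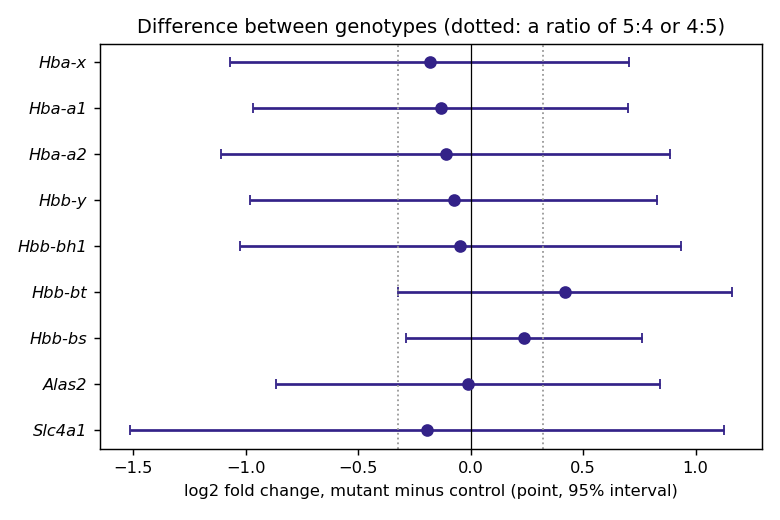
Log2 fold change of mutants against controls for each member (horizontal axis), with the point estimate, its 95% interval from edgeR's quasi-likelihood fit and dotted lines at ratios of 5:4 and 4:5. Every interval spans 0, from -1.52 for the lower end of Slc4a1 to 1.16 for the upper end of Hbb-bt, and every interval reaches past 1 of these lines or both.

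The direction of these small values depended on single libraries. Without control 1 the log2 fold change was above 0 for all 9 members, for example 0.05 for Hba-x and 0.23 for Hbb-bh1, and with a covariate for Y-linked expression it was 0.58 for Hba-x, 0.63 for Hbb-y and 0.86 for Slc4a1, none of them called. The covariate leaves mainly control 2, the lowest in blood RNA, to set against the mutants, and control 2 lay below all 3 mutants for all 9 members.

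The spread over libraries was shared. On the log2 scale each member's CPM was centred on its own mean and averaged over the 9, which put control 1 at 1.41 times and control 2 at 0.649 times the mean level, control 3 at 1.05, mutant 1 at 1.00, mutant 2 at 0.86 and mutant 3 at 1.21 times. Over the 6 libraries Pearson's r with this average, to which each member itself contributes, was 0.95 to 0.99 for Hba-x, Hba-a1, Hba-a2, Hbb-y, Hbb-bh1, Alas2 and Slc4a1. It was 0.57 for Hbb-bt and 0.52 for Hbb-bs. Without controls 1 and 2, the libraries farthest from the median, r over the other 4 was 0.78 for Hba-x and Hbb-bh1, 0.85 for Hba-a1 and 0.93 to 0.98 for Hba-a2, Hbb-y, Alas2 and Slc4a1, against 0.10 for Hbb-bt and -0.35 for Hbb-bs. Being values of the same 6 libraries, these correlations are a description.

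**Figure D3:**
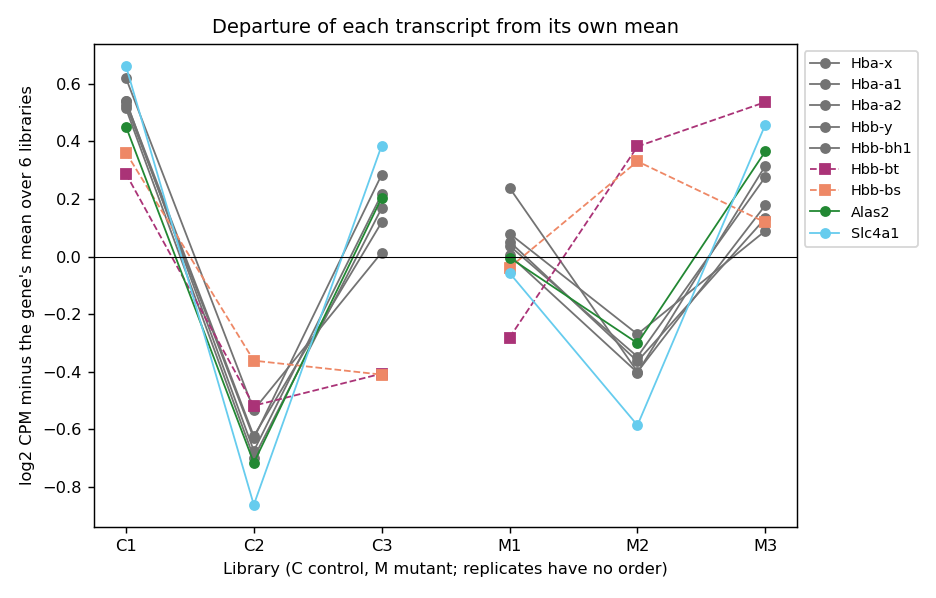
Log2 CPM of each member minus its own mean over 6 libraries (vertical axis) by library; lines join libraries of 1 group only to guide the eye. The 5 embryonic and alpha globins, Alas2 and Slc4a1 run together, lowest in control 2. Hbb-bt and Hbb-bs (dashed) are low in control 2 and also in control 3, and are high in mutant 2.

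A ratio of counts within a library cancels its total of blood RNA and its scaling. Of 6 ratios, compared by two-sided exact permutation tests with a smallest possible p of 0.10, none could pass and none did (adjusted p 0.60 to 1.00 over the 6). Hba-x reached 1.09, 1.10 and 1.31 counts per count of Hba-a1 plus Hba-a2 in controls and 1.14, 1.10 and 1.11 in mutants, with control 3 standing apart. Hbb-bh1 per Hbb-y was 0.627, 0.605 and 0.660 in controls and 0.733, 0.615 and 0.596 in mutants, where mutant 1 was highest and the groups overlapped. The differences in mean log2 ratio, mutant minus control, were -0.06 (p = 1.00, exact) and 0.03 (p = 0.90, exact).

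The balance of alpha-like to beta-like counts was the steadiest of these ratios and the only one without overlap. It stood at 0.769, 0.773 and 0.788 in controls and at 0.720, 0.756 and 0.707 in mutants, a difference in mean log2 ratio of -0.09. Its p of 0.10 was the smallest the exact permutation test can give, with an adjusted p of 0.60. With the mean log2 CPM of the same genes in place of summed counts the difference was -0.25.

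The embryonic to adult beta ratio varied most, 2.41-fold from highest to lowest library. There were 56.4, 42.3 and 71.5 counts of Hbb-y plus Hbb-bh1 per count of Hbb-bt plus Hbb-bs in controls and 59.3, 29.6 and 45.3 in mutants. Put the other way, adult beta counts were 1.77%, 2.37% and 1.40% of the embryonic beta counts in controls and 1.69%, 3.38% and 2.21% in mutants, so mutant 2 was highest and control 2 came next. The groups overlapped (difference in mean log2 ratio -0.37, p = 0.50, exact permutation test). This difference was -0.10 without mutant 2, -0.18 without control 3, -0.56 without control 2 and -0.60 without mutant 1. The pair Hbb-bt and Hbb-bs itself stood at 1.01, 0.956 and 1.07 in controls and 0.901, 1.10 and 1.42 in mutants.

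**Figure D4:**
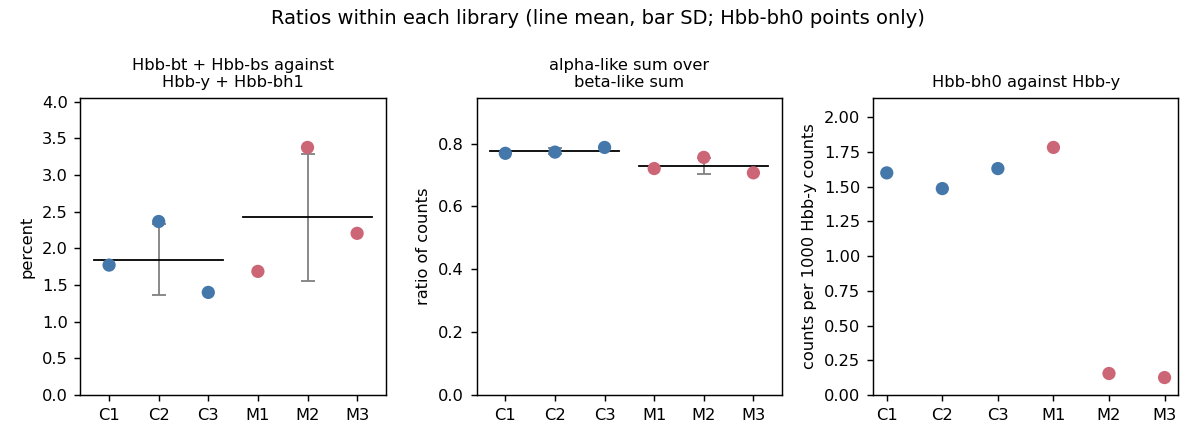
Ratios of counts within each library for controls (C) and mutants (M): adult beta as a percent of embryonic beta, the alpha-like to beta-like ratio, and Hbb-bh0 counts per 1000 Hbb-y counts; lines and bars are the mean and SD of each group, and the Hbb-bh0 panel shows points only. The percent of adult beta is highest in mutant 2 (3.38), the alpha-like to beta-like ratios of mutants (0.707 to 0.756) lie below those of controls (0.769 to 0.788), and Hbb-bh0 is low in mutants 2 and 3.

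Alas2 and Slc4a1 kept pace with globin. Alas2 counts per globin count differed by 1.19-fold at most between libraries, and Slc4a1 by 1.41-fold. The differences in mean log2 ratio were 0.08 (p = 0.70, exact) and -0.08 (p = 0.90, exact). For Slc4a1 the ratio was lowest in mutant 2, at 0.00872, with control 2 at 0.00877.

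Other genes of the red cell were taken from 6 lists, covering haem synthesis, iron and haem transport, the red cell membrane, red cell enzymes and chaperones, erythroid transcription factors and erythroid receptors. Of 72 tested genes in these lists 0 were called in either direction by edgeR's test, beside 0.326% of all genes tested. There were 36 values below and 36 above 0, with a median log2 fold change of 0.00, the same as over all genes. At an unadjusted p below 0.05 in edgeR's test there were 4 of the 72, against 7.95% of all genes. DESeq2's test called 1, beside 1.58% of all genes it tested. This was Fam210b, a mitochondrial protein of erythroid maturation, which did not follow the globins (r = -0.15 with the member average).

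The lists held genes that followed the globins and genes that did not. Of the 72, 19 had an r above 0.9 with the member average over the 6 libraries, or 26.4%, beside 0.775% of all genes tested (152 genes, members included). They were 8 of 19 membrane genes (Ank1, Rhag, Kel, Xk, Epb42 and Tspan33 among them), 4 of 12 enzymes and chaperones (Trim10, Hemgn, Car2 and Blvrb), Klf1 and Gata1 among 14 transcription factors, Epor and Csf2rb among 4 receptors, Slc25a37 and Steap3 among 12 transport genes, and Abcb10 among 11 haem synthesis genes. Some genes of the lists ran the other way, among them Bsg (r = -0.90), Alad (-0.89), Gata2 (-0.87) and Aqp1 (-0.84). Alad stood at 71.3 CPM in control 2 and at 38.6 to 46.4 CPM in the other libraries. Naming all these genes followed from their values.

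Klf1, the factor that binds CACCC elements of erythroid genes, was measured at 6.55, 2.44 and 4.99 CPM in controls, against 4.23, 3.60 and 4.66 CPM in mutants. It showed the low control 2 and the low mutant 2 of the globins. Epor, the erythropoietin receptor, ran from 1.97 CPM in control 2 to 4.01 CPM in control 1, with the mutants at 2.49 to 3.28 CPM. Slc25a37, the mitochondrial iron importer mitoferrin 1, ran from 35.5 to 66.3 CPM in controls and from 40.5 to 62.7 CPM in mutants.

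The most abundant genes named from these lists are also expressed outside the red cell lineage. Tmem14c, of haem synthesis, spanned 1.14-fold over the 6 libraries, and the ferritin chains Ftl1 and Fth1 1.40-fold and 1.07-fold. The membrane skeleton gene Epb41 spanned 1.12-fold and the surface glycoprotein Bsg 1.18-fold. Prdx2, a peroxidase, and Cat, catalase, each spanned 1.08-fold, and the transcription regulators Ldb1 and Klf3 spanned 1.24-fold and 1.20-fold. Kit, a receptor of progenitors and of melanoblasts, spanned 1.47-fold. The median over all genes tested was 1.28-fold, and that of the red cell membrane list 2.18-fold.

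**Figure D5:**
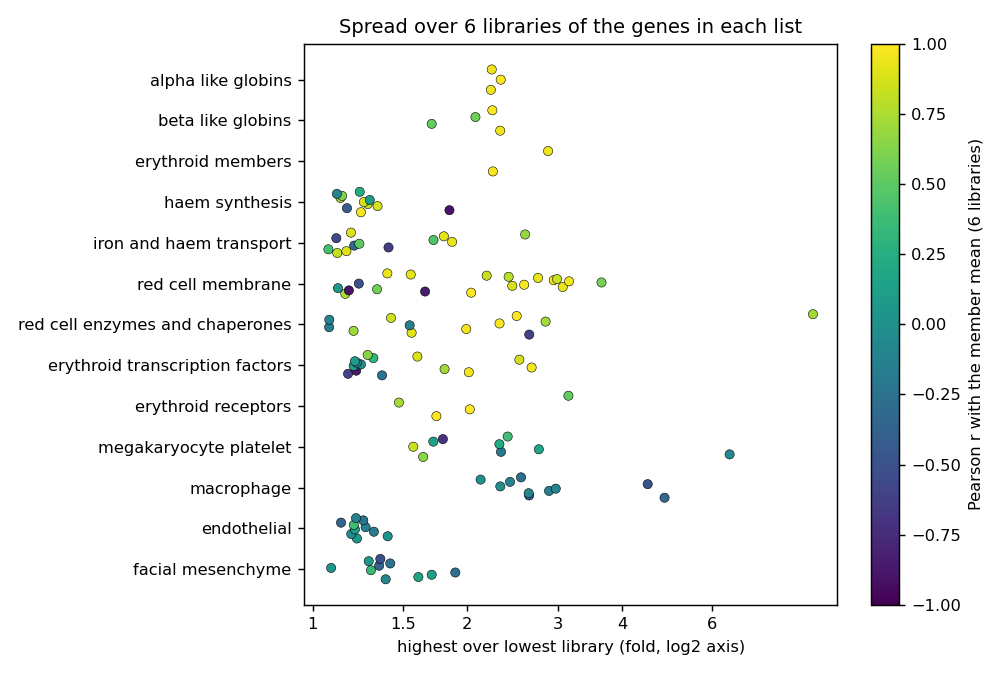
Spread of each tested gene over 6 libraries as the fold from lowest to highest on the log2 CPM scale (horizontal log2 axis), by list, with colour for Pearson's r with the average of the 9 members. Red cell lists hold widely spread genes with r near 1 beside steady genes and some with a negative r. Endothelial genes are steady, and macrophage genes spread without following the globins.

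Of genes that are not members and had a mean count of at least 100, the 10 with the highest r over the 6 libraries included Ank1 (r = 0.991), Epor (0.988), Trim10 (0.987), Tshz1 (0.985), Rhag (0.984), Cdr2 (0.981), Hemgn (0.981), Csf2rb (0.980) and Gm20939 (0.980). Of these 9, 6 stand in the red cell lists. Ank1 (ankyrin 1, which ties band 3 to the membrane skeleton) measured 11.04, 5.41 and 8.84 CPM in controls, against 7.88, 6.65 and 9.70 CPM in mutants. Tshz1 and Cdr2 followed the same order of libraries over a narrow range, 1.13-fold and 1.09-fold, against 2.95-fold for Rhag. Without controls 1 and 2, r over the other 4 libraries was between 0.907 and 0.999 for these 9 genes.

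Genes within 100 kb of the alpha cluster differed in how closely they followed it. Of 7 tested protein-coding genes other than members within 100 kb of the alpha cluster, 1 had an r above 0.9, the theta-like globin Hbq1b inside it, at 0.344 to 0.815 CPM (r = 0.90). Its copy Hbq1a, on the other side of Hba-a2, had an r of 0.76 at no more than 0.205 CPM. Nprl3, whose introns hold the main enhancers of the alpha cluster, stood at 33.2 to 36.6 CPM in controls and 31.0 to 35.6 CPM in mutants and had an r of 0.007. Around the beta cluster none of 14 such genes passed the filter, most of them olfactory receptor genes.

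Of 5 other tested genes of the globin fold, 1 was called, Cygb, the cytoglobin of fibroblast-like cells. It rose from 6.40, 5.67 and 6.70 CPM in controls to 12.5, 10.3 and 9.88 CPM in mutants, or 0.80 on the log2 scale (SE 0.12, adjusted p = 0.040, edgeR). All mutants lay above all controls. Its r with the member average was 0.16. The call was lost under 9 of 16 alternatives, including each in which 1 library was left out (adjusted p 0.076 to 0.138), and over all 16 its adjusted p ran from 1.93e-06 to 0.214. The antisense gene Prcd overlaps its exons over 201 bases.

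Markers of other blood and vessel cells were summed for each library. The macrophage list had a summed level of 28.4 to 41.3 CPM in controls and 51.7 to 75.2 CPM in mutants, with the log2 fold change above 0 for 10 of 10 genes, a median of 0.79 beside 0.00 over all genes, and 1 gene called. This was C1qb, a complement chain, which rose from 3.86 ± 0.669 to 7.81 ± 1.08 CPM (SD, n = 3; log2 fold change 1.02, SE 0.15, adjusted p = 0.042, edgeR), a call that 9 of 16 alternatives lost (adjusted p over all 16 from 2.19e-06 to 0.303). The 2 most abundant, Csf1r and Cx3cr1, had log2 fold changes of 0.78 and 0.77 and were not called (adjusted p = 0.341 and 0.081).

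Endothelial markers, led by Cdh5 and Kdr, summed to 323 to 334 CPM in controls and 356 to 374 CPM in mutants. Of the 10, 0 were called and none had an r above 0.9. The log2 fold change was above 0 for all 10, with a median of 0.12 beside 0.00 over all genes. In edgeR's test 4 had an unadjusted p below 0.05, against 7.95% of all genes. Control and mutant values did not overlap for 3, against 13.4% of all genes. Megakaryocyte and platelet markers were low, at a sum of 8.69 to 10.8 CPM in controls and 8.44 to 11.5 CPM in mutants, led by Itga2b (r = 0.84 with the member average) and Pf4 (r = 0.13), with 0 of 9 called. No marker in these lists was at 0 in all libraries. The part of blood content or of these cells in any difference was not tested. Of 10 facial mesenchyme genes, Alx4 (log2 fold change -0.67, adjusted p = 0.0052) and Alx1 (-0.41, adjusted p = 0.011) were called lower in mutants by edgeR's test, and neither followed the globins (r = 0.12 and -0.08). The Alx1 call was lost under 5 of 16 alternatives, with an adjusted p of up to 0.161, and the Alx4 call under none. All 10 facial mesenchyme genes had a log2 fold change below 0, with a median of -0.29, and 8 did not overlap between groups. Surface ectoderm markers, led by Krt8 and Krt18, neural markers, led by Tubb3 and Sox2, Y-linked genes, led by Kdm5d and Ddx3y, and mitochondrial RNA, led by mt-Co1 and mt-Cytb, had 0 genes called and 0 with an r above 0.9.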

How the data were processed

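Bulk RNA-seq libraries (poly(A), stranded kit, 150-base single-end reads) were made from 3 control and 3 mutant midfaces and grouped by GEO title. The authors mapped reads to mm10 with STAR and quantified genes with StringTie and prepDE; the deposited values are estimated counts, whole as deposited and used without rounding. Versions of these tools and the annotation release were not given in the sources read. The authors' columns of fold changes and p-values, and their kallisto and sleuth table of such values, were not used. As fewer genes had a count of 3 than of 2 or 4 in each library, tests were repeated on counts divided by 2.

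Genotypes were compared in R 4.3.3 with edgeR 4.0.16 (filterByExpr, TMM factors 0.992 to 1.008, robust quasi-likelihood F test) and p-values were adjusted by Benjamini-Hochberg over all 19612 genes tested. SE is the absolute log2 fold change divided by the square root of F. DESeq2 1.42.0 was an alternative. The fit was tested on simulated data. The limit for low values of 3 counts covers counting error only. Log2 CPM for correlations used a prior count of 2. Gene positions and lengths came from GENCODE M21, which matched 98.1% of gene IDs with version, and promoters from RefSeq. Hbb-bh1 and Slc4a1 promoters were not used here.

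Members and gene lists were chosen with earlier results of these data known. Named genes are all members, the called genes and the 2 most abundant of each list, and the 10 most like the members; other names are given as chosen from their values. Some genes that this rule picks are not reported here.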

Additional observations from a re-analysis of the deposited data

How the results depend on the processing

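The count of called members was 0 under all 16 alternatives. The fold changes of Hbb-bt and Hbb-bs stayed above 0 throughout (0.25 to 0.71 and 0.094 to 0.52 with 1 library left out), but those of the other 7 members changed direction. With the Y-linked covariate they were 0.58 for Hba-x, 0.50 for Hba-a1, 0.67 for Hba-a2, 0.63 for Hbb-y, 0.73 for Hbb-bh1, 0.76 for Alas2 and 0.86 for Slc4a1. Leaving out 1 library at a time gave log2 fold changes of -0.46 to 0.052 for Hba-x, -0.37 to 0.20 for Hba-a1, -0.39 to 0.16 for Hba-a2, -0.33 to 0.21 for Hbb-y, -0.32 to 0.23 for Hbb-bh1, -0.29 to 0.22 for Alas2 and -0.53 to 0.10 for Slc4a1. Without control 2 and mutant 2, an alternative chosen after seeing the data, they kept their direction and Hba-x was at -0.32. The cause was not tested.

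With the replicate number as a block the log2 fold change was 0.010 for Hbb-bh1 and 0.037 for Alas2. Their SE fell from 0.37 to 0.12 and from 0.34 to 0.18. The SE of the other members also fell, except for Hbb-bt (0.30 to 0.44) and Hbb-bs (0.22 to 0.26), where it rose. Same-numbered libraries deviated together with r of 0.03, 0.11 and 0.13, so the numbers were not taken to pair the samples, although each library correlated best with its own number. Under the block 119 genes of all tested were called, against 64 without it, and no call of a member changed. DESeq2's test called 279 genes, the Y-linked covariate 39, and the fit without control 2 and mutant 2 30. Leaving out 1 library gave 23 to 63. Of the red cell lists, 1 gene was called by DESeq2 (Fam210b) and 1 with the Y-linked covariate (Alad). With that covariate the calls of Cygb, C1qb and Alx1 were lost (adjusted p = 0.141, 0.303 and 0.075, edgeR). The call of Alx4 was kept (adjusted p = 0.025, edgeR).

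The alpha-like to beta-like difference in mean log2 ratio was -0.25 when the mean log2 CPM of the same genes replaced the summed counts, which weights the scarce adult beta genes like the others, and -0.12 to -0.07 with 1 library left out. The other ratios and the globin share moved by less than 1 SD between replicates, although with 1 library left out the embryonic to adult beta difference ran from -0.60 to -0.10 and the globin share difference from -0.0912 to 0.0372 percentage points. With 3 libraries per group, the spread among controls limits what these comparisons can show.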

Other observations

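Hbb-bh0, a short beta-like pseudogene between Hbb-bh1 and Hbb-y, was singled out after its values were seen. It is annotated at 103850020 to 103850148 on chromosome 7 of mm10, on the minus strand, over 129 bases. Controls 1, 2 and 3 had 191, 77 and 147 counts of it, and mutants 1, 2 and 3 had 140, 9 and 13. Per 1000 Hbb-y counts the controls held 1.60, 1.49 and 1.63, and the mutants 1.78, 0.154 and 0.125. The 3 controls and mutant 1 all stood at least 9.63 times as high as mutants 2 and 3 on that ratio, while Hbb-y itself was not low in mutant 3. Over all libraries edgeR's test put its log2 fold change at -1.27 (SE 1.10, adjusted p = 0.905). Without mutant 1 it was -3.61 with an adjusted p of 0.035, and over the 6 fits that each left out 1 library the adjusted p ran from 0.035 to 0.998. At 129 bases the gene is shorter than a read of 150 bases. Mutants 2 and 3 were also the libraries with the most Hbb-bt (24.7 and 27.5 CPM) and the highest Hbb-bt to Hbb-bs ratio (1.10 and 1.42). Hbb-bs itself was highest in control 1. Whether these differences within the beta cluster are related was not tested.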
